A study of Homo sapiens with 4 samples.

Results

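The 10 genes described here encode transcription factors of mesenchymal cells and of the epithelial-mesenchymal transition (EMT): TWIST1, TWIST2, SNAI1, SNAI2, ZEB1, ZEB2, PRRX1, TBX18, RUNX1 and RUNX2. They were chosen by gene symbol, and all 10 had a row among the 55765 rows of the deposited count table. The libraries came from SK-N-BE(2)C, an established human neuroblastoma cell line with amplified MYCN, so both groups come from 1 line. One group received 10 µM all-trans retinoic acid (ATRA), a vitamin A acid that binds nuclear receptors and drives neuroblastoma cells to differentiate, for 144 h. The other received its solvent, ethanol, for 144 h. Each group had 2 libraries, called 1 and 2 after the number in their titles (a title without a number is 1). The labels do not say whether these were separate cultures, so the p-values reflect no more than how far these libraries spread, and that spread may be technical.

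EMT factors are known for switching cells from a sheet-forming to a migratory state. SNAI and ZEB proteins are zinc finger repressors that bind E-box sequences in the promoters of epithelial genes such as the E-cadherin gene CDH1. TWIST proteins are basic helix-loop-helix factors that pair with E proteins, PRRX1 is a homeobox factor of limb and craniofacial mesenchyme, TBX18 a T-box factor of heart, ureter and somite mesenchyme, and RUNX proteins bind DNA with the partner CBFB. In neuroblastoma, cells can take an adrenergic state close to sympathetic neuroblasts or a mesenchymal state close to neural crest cells, and PRRX1, SNAI2, TBX18 and RUNX factors are known as members of the mesenchymal state. SNAI2 is also a factor of the migrating neural crest, the embryonic source of sympathetic cells.

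The ZEB genes are the textbook targets of the miR-200 family, which pairs with their messenger RNA through bases 2 to 8 of the microRNA. The 5 mature members are shown because they fall into 2 groups by that seed, in capitals (RefSeq, GRCh38.p14), and because the 3′ UTRs of the 2 ZEB genes hold many matches to both.

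hsa-miR-200b-3p: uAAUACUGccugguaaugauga

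hsa-miR-200c-3p: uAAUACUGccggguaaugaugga

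hsa-miR-429: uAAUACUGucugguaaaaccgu

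hsa-miR-200a-3p: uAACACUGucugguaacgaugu

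hsa-miR-141-3p: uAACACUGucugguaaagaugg

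The 3′ UTR of ZEB1 (2549 bases in GENCODE 29, taking the transcript with the longest coding sequence) held 6 matches to the AAUACUG seed and 3 to the AACACUG seed. The 3′ UTR of ZEB2 (5370 bases) held 5 and 4. None of the 1975 other genes with a 3′ UTR within 20% of the ZEB1 length held 9 or more such matches, and 0.117% of 853 genes did so at the ZEB2 length. TBX18 held 4 and RUNX1 held 3, numbers reached by 4.05% and 11.9% of genes of similar 3′ UTR length. TWIST1, TWIST2, SNAI1, PRRX1 and RUNX2 held 0. The 3′ UTRs taken for TWIST1, TWIST2, SNAI1 and RUNX2 were short (706, 737, 830 and 627 bases), and that of PRRX1 had 3233 bases. A value of 0 in a short 3′ UTR says little, and other transcripts were not searched. All of these are matches of letters, not measured binding. The 3′ UTR of SNAI2 was not searched. An example of a match, in capitals within a stretch of 30 bases, lies at bases 351 to 380 of the ZEB1 3′ UTR and at bases 374 to 403 of the ZEB2 3′ UTR.

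ZEB1 site: ggcattgttttatcttatCAGTATTatcac

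ZEB2 site: gcccgcactaccatacatCAGTATTtttat

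The hairpin gene MIR200B had 3 reads, all in ethanol library 1, and MIR200A, MIR200C, MIR141 and MIR429 had 0 reads in all 4 libraries. Such libraries of long RNA do not measure mature microRNAs, so these counts say nothing of their level.

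Total counts ran from 12850462 to 19883465 reads per library, and the 10 genes together took 2836 to 5328 of them. The libraries numbered 1 differed from those numbered 2 in both groups: mitochondrial ribosomal RNA took 2.49% (ATRA) and 5.96% (ethanol) of counts in number 1, against 0.130% and 0.0291% in number 2. For this reason the log2 difference of ATRA over ethanol within each number is given beside the fitted value of each factor tested. It is not given for genes of the other lists. Levels are CPM, the reads of a gene relative to the size of its library, with sizes scaled by TMM, a method that evens out differences in library composition, and are given as mean ± SD with n = 2. Each fold change is the log2 of ATRA over ethanol, followed by its standard error (SE). Of the sympathetic neuroblast markers, all 10 (among them HAND2, GATA3, TH and DBH) passed the filter on low counts, with summed levels of 2526 and 3774 CPM with ATRA and 2370 and 3035 CPM with ethanol. Of these 10, 7 had a log2 fold change below 0, and the median was -0.34, against 0.01 over all genes tested. GATA3 was called lower (adjusted p under 0.05, edgeR quasi-likelihood), where 0.153% of all genes tested were. As alternatives, DESeq2 called 1 higher and 2 lower (6.36% of all genes), and limma-voom called 0 (0.265%).

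Of the 10 factors, 9 had reads and 7 passed the filter. None of the 7 was called at an adjusted p of 0.05 (edgeR quasi-likelihood), where 0.698% of the 18900 genes tested were called, 0.545% higher and 0.153% lower. At an unadjusted p under 0.05 there were 3 (TBX18 and SNAI2 higher, SNAI1 lower with ATRA), where 15.9% of all genes tested lay under that value. DESeq2 called 2 of them (TBX18 and SNAI2), where it called 6.36% of its genes, and limma-voom 0, where it called 0.265%. With other scalings 0 were called (0.725%, 0.73% and 0.624% of all genes). With every gene of 1 count or more kept, 2 were called (4.88% of all genes), and with the title number as a block 3 in edgeR (21.7%) and 2 in DESeq2 (14.2%). Without ATRA 1, ATRA 2, ethanol 1 and ethanol 2, there were 0, 2, 1 and 2, against 4.2%, 6.96%, 4.35% and 5.88% of all genes. The median log2 fold change of the 7 was -0.02, against 0.01 over all genes tested, with 3 above 0 and 4 below. With ATRA above ethanol in all libraries there was 1 tested factor, TBX18, where 23.8% of all genes tested had that order. With ATRA below ethanol in all libraries there were 2, SNAI1 and TWIST1, where 21.7% of all genes had that order; the groups of 45.5% of all genes did not overlap in either direction. These orders were the same under all 4 scalings tried (TMM, median-ratio, upper quartile and library size alone).

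**Figure D1:**
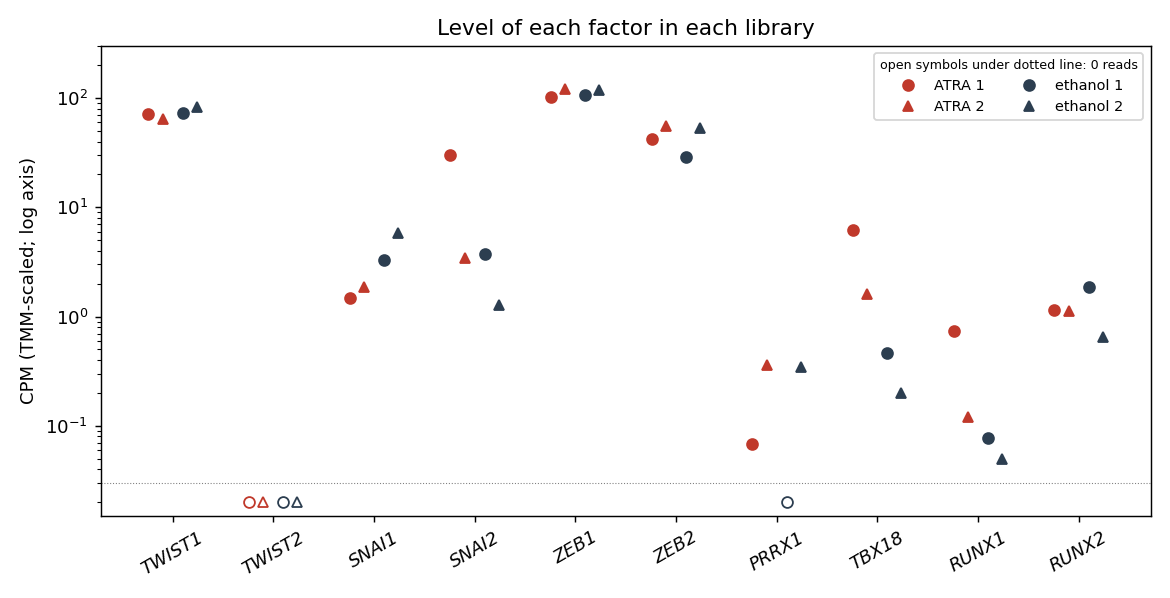
Level of each of the 10 factors in each of the 4 libraries, in TMM-scaled CPM on a log axis, with circles for libraries 1 and triangles for libraries 2. TWIST1, ZEB1 and ZEB2 sit between 28.9 and 120 CPM in every library, TBX18 is higher in both ATRA libraries, SNAI1 is lower in both, and the SNAI2 symbols of the groups overlap.

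Levels between genes were compared per kilobase of the longest coding transcript in GENCODE 29. With ethanol TWIST1 was the most abundant at 46.6 CPM per kilobase, followed by ZEB1 at 18.1, ZEB2 at 4.31, SNAI1 at 2.70, SNAI2 at 1.04 and RUNX2 at 0.219. TBX18 at 0.0529, PRRX1 at 0.0405 and RUNX1 at 0.00870 CPM per kilobase lay far lower. The ZEB2 libraries (3.02 and 5.59 CPM per kilobase) overlapped those of SNAI1 (1.96 and 3.44), while TWIST1 and ZEB1 did not overlap, nor did SNAI1 and SNAI2. With all exons merged as the length, ZEB2, which has many annotated exons, was at 1.65 and fell below SNAI1 in the order. With ATRA the order was TWIST1 at 40.6, ZEB1 at 17.8, SNAI2 at 6.87, ZEB2 at 5.12, SNAI1 at 0.992, TBX18 at 0.623 and RUNX2 at 0.201 CPM per kilobase. The step of SNAI2 past ZEB2 rested on 1 library, since SNAI2 was at 12.3 and 1.40 CPM per kilobase in ATRA libraries 1 and 2 and ZEB2 at 4.43 and 5.81.

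TBX18 had the largest fold change of the 10 among those tested. It had 91 and 27 reads with ATRA and 6 and 4 with ethanol, or 6.16 and 1.62 CPM against 0.462 and 0.198 CPM. Both ATRA libraries lay above both ethanol libraries, and the ATRA libraries differed from each other by 3.82-fold. The log2 fold change was 3.58 ± 0.93 (adjusted p = 0.143, edgeR quasi-likelihood), with 3.42 and 2.43 within numbers 1 and 2, and it was above that of 98.5% of the genes tested. DESeq2 called TBX18 (adjusted p = 0.00518), and so did the edgeR fits without ATRA 2, ethanol 1 or ethanol 2 (adjusted p = 0.00158, 0.0202 and 0.0386); without ATRA 1 it was 2.31 ± 1.29 with an adjusted p of 0.515. In such libraries, more cells that express a gene and more RNA of it per cell cannot be told apart. The antisense gene TBX18-AS1 was not analysed here.

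The promoter of TBX18 is shown because TBX18 was the factor with the largest difference and retinoic acid receptors bind DNA at paired copies of a short motif. The 250 bases before its start, chr6:84764599-84764848 on the minus strand (RefSeq, GRCh38.p14), are printed with that motif in capitals. The letters searched were AGGTCA and AGTTCA on both strands. The window held 1 match to AGTTCA, starting 197 bases before the start site. Among the other windows of the factors, the distal RUNX2 promoter printed further on also held 1 match, 96 bases before its start. Of all 35116 promoter windows of 300 bases, 22.6% held at least 1 match and 10.4% held AGTTCA, so a match is common.

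TBX18 promoter: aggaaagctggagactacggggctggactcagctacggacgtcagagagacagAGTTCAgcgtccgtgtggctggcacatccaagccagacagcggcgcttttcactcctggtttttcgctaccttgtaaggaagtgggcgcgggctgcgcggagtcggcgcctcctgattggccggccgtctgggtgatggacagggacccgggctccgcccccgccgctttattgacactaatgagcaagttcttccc

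The SNAI genes differed in opposite directions, and neither passed the test. SNAI1 had 22 and 31 reads with ATRA and 43 and 117 with ethanol, or 1.49 and 1.85 CPM against 3.31 and 5.80 CPM. Both ATRA libraries lay below both ethanol libraries. The log2 fold change of SNAI1 was -1.44 ± 0.55 (adjusted p = 0.281, edgeR quasi-likelihood), with -1.09 and -1.58 within numbers. The processed copy SNAI1P1 had 9 and 9 reads with ATRA and 14 and 3 with ethanol. How reads shared between SNAI1 and this copy were counted is not given in the sources used here, so the SNAI1 counts are uncertain to that extent.

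SNAI2 had 442 and 57 reads with ATRA and 49 and 26 with ethanol, or 29.9 and 3.41 CPM against 3.77 and 1.29 CPM. ATRA library 1 stood far above the other 3 libraries, and ATRA library 2 lay below ethanol library 1, so the groups overlapped. The log2 fold change of SNAI2 was 2.74 ± 1.07 (adjusted p = 0.292, edgeR quasi-likelihood), with 2.95 and 1.32 within numbers. Without ATRA 1 it was 0.45 ± 0.89 (adjusted p = 0.983), and without ATRA 2 it was 3.58 ± 0.58 (adjusted p = 6.22e-08, both edgeR quasi-likelihood). DESeq2 called SNAI2 (adjusted p = 0.0109), as did the fit without ethanol 2 (2.15 ± 0.66, adjusted p = 0.0237, edgeR quasi-likelihood); without ethanol 1 it was 3.65 ± 2.17 (adjusted p = 0.696). SNAI2 was 8.78-fold higher in ATRA library 1 than in ATRA library 2, and 0.746% of the genes tested were higher in library 1 by at least as much.

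**Figure D2:**
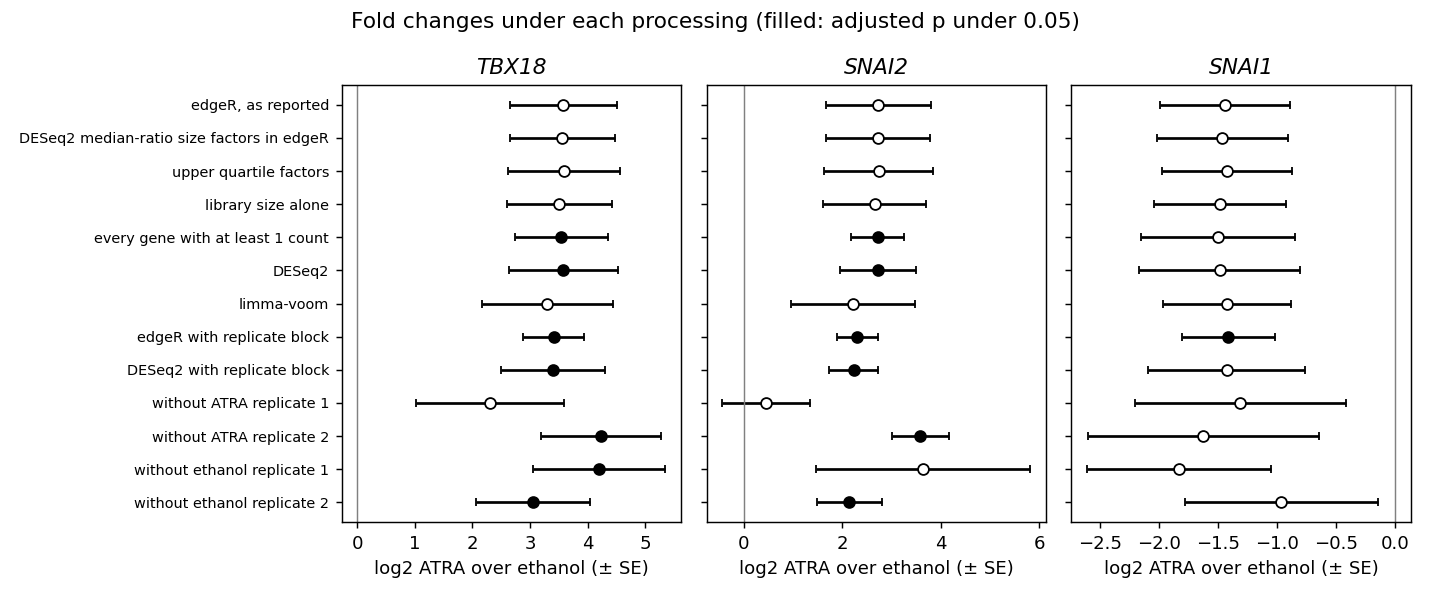
Log2 fold change of ATRA over ethanol with its SE (bars) for TBX18, SNAI2 and SNAI1 under each processing, with filled points where adjusted p was under 0.05. All points of TBX18 lie above 0 and all of SNAI1 below 0, and the SNAI2 point drops to 0.45 without ATRA replicate 1.

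Reads of the SNAI pair were also compared inside each library, which needs no scaling; this measure was chosen after the values were seen. SNAI2 made up 95.3% of the SNAI1 and SNAI2 reads in ATRA library 1 (95% Wilson interval 92.9% to 96.8%) and 64.8% in ATRA library 2 (54.4% to 73.9%). With ethanol it made up 53.3% in library 1 (43.1% to 63.1%) and 18.2% in library 2 (12.7% to 25.3%). Both ATRA shares lay above both ethanol shares, although the intervals of ATRA 2 and ethanol 1 overlapped. With 2 libraries against 2 the smallest p an exact two-sided permutation test can give is 0.333, so no test was made. Intervals cover counting error inside 1 library only. They may be too narrow even for that, since the reads carried no molecular identifiers. SNAI3, the third gene of the family, was at 3.32 ± 1.91 CPM with ATRA and 2.05 ± 0.586 CPM with ethanol, and its log2 fold change was 0.70 ± 0.64.

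**Figure D3:**
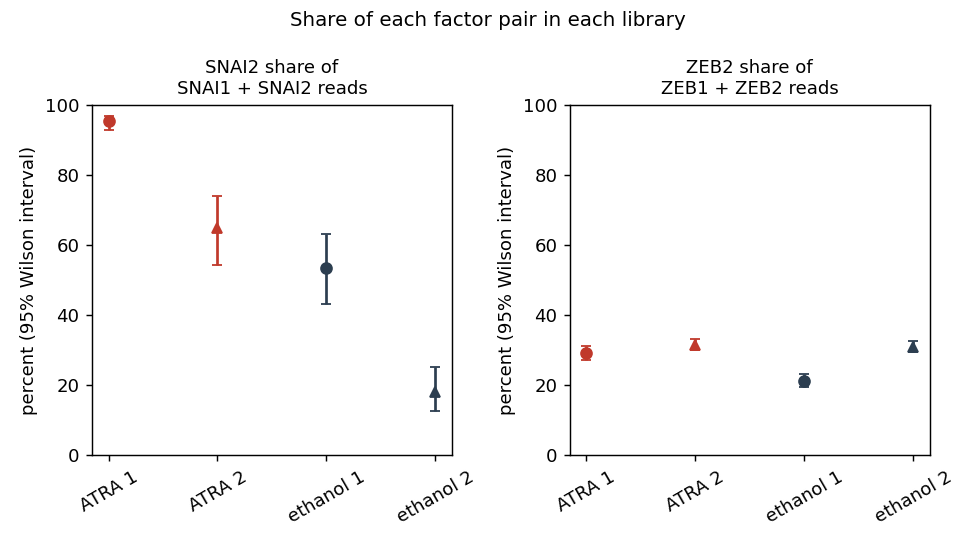
Percent of SNAI1 and SNAI2 reads that came from SNAI2 (left), and of ZEB1 and ZEB2 reads that came from ZEB2 (right), in each library, with 95% Wilson intervals. The SNAI2 share runs from 18.2% to 95.3% with both ATRA libraries on top, and the ZEB2 share stays between 21.2% and 31.6%.

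The ZEB genes were abundant in all 4 libraries and close between the groups. ZEB1 had 103 and 120 CPM with ATRA and 107 and 119 CPM with ethanol. The ranges of ZEB1 overlapped almost fully. Its log2 fold change was -0.02 ± 0.24 (adjusted p = 0.985, edgeR quasi-likelihood), with -0.06 and 0.01 within numbers. ZEB2 had 42.5 and 55.7 CPM with ATRA and 28.9 and 53.6 CPM with ethanol. Ethanol library 1 was the low value for ZEB2 and the other 3 libraries lay together; the log2 fold change was 0.25 ± 0.36 (adjusted p = 0.843, edgeR quasi-likelihood), with 0.55 and 0.06 within numbers. The ZEB2 share of ZEB reads was 29.2% and 31.6% with ATRA and 21.2% and 31.0% with ethanol.

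ZEB1-AS1 lies on the opposite strand at the start of ZEB1, and was at 8.98 ± 0.919 CPM with ATRA and 10.6 ± 0.657 CPM with ethanol (-0.24 ± 0.34). ZEB2-AS1 had 4 and 9 reads with ATRA and 3 and 16 with ethanol and did not pass the filter. The library kit was directional, but the strand setting of the counting is not given in the sources used here, so reads of these pairs may be mixed. The copy ZEB2P1 had 5 reads or fewer in each library. Among the 7 ZEB1 promoter windows of RefSeq, 2 held the E-box letters CACCTG (or CAGGTG, the same site on the other strand), with 1 and 3 matches, and the ZEB2 window held 0; 20.6% of all promoter windows hold it.

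TWIST1 was the most abundant factor per length. It had 71.1 and 64.4 CPM with ATRA and 72.5 and 82.8 CPM with ethanol. The ATRA libraries lay just below the ethanol libraries, and ATRA 1 and ethanol 1 were nearly equal. The log2 fold change of TWIST1 was -0.20 ± 0.24 (adjusted p = 0.788, edgeR quasi-likelihood), with -0.03 and -0.36 within numbers. TWIST2 had 0 reads in all 4 libraries, which over the reads of all libraries allows a level of up to 0.0464 CPM. HDAC9, the histone deacetylase gene beside TWIST1, was at 57.5 ± 2.10 CPM with ATRA and 129.8 ± 14.4 CPM with ethanol, which is -1.17 ± 0.24 on the log2 scale (adjusted p = 0.0920, edgeR quasi-likelihood).

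PRRX1 was close to absent. It had 1 and 6 reads with ATRA and 0 and 7 with ethanol, did not pass the filter, and its ratio of reads was 1.05 with a 95% exact counting interval of 0.315 to 3.52. In both groups nearly all of its reads came from library 2. Its relative PRRX2 had 4 and 1 reads with ATRA and 1 and 8 with ethanol.

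The RUNX genes were low. RUNX1 had 11 and 2 reads with ATRA and 1 and 1 with ethanol, and did not pass the filter. The ratio of its reads was 6.85 with a counting interval of 1.55 to 62.5, and 11 of the 13 reads with ATRA came from library 1. That interval pools the reads of each group and leaves out the spread between libraries, so it shows no rise of RUNX1. With every gene of 1 count or more kept, RUNX1 was not called (2.61 ± 1.42, adjusted p = 0.499, edgeR quasi-likelihood). RUNX2 had 1.15 and 1.14 CPM with ATRA and 1.85 and 0.644 CPM with ethanol. The ethanol libraries of RUNX2 lay on either side of the ATRA libraries. Its log2 fold change was -0.10 ± 0.72 (adjusted p = 0.978, edgeR quasi-likelihood), with opposite signs within numbers (-0.63 and 0.71). RUNX3 had 0 reads in all 4 libraries. SUPT3H, whose gene overlaps RUNX2 on the other strand, was at 7.72 ± 0.670 CPM with ATRA and 5.81 ± 2.01 CPM with ethanol (0.41 ± 0.44).

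The distal promoter of RUNX2 is shown because it holds the binding letters of RUNX proteins themselves. The letters searched were TGTGGT on both strands (ACCACA on the other). The window of 300 bases around the start held 4 matches, a number reached by 0.0142% of all promoter windows, while 13.1% held at least 1. The 250 bases before the start, chr6:45328080-45328329 on the plus strand (RefSeq, GRCh38.p14), carry 2 of the 4, in capitals; the other two lie just after the start. The proximal RUNX2 window and the RUNX1 window held 0. Promoter windows were searched for 7 of the 10 factors, and those of TWIST1, SNAI1 and SNAI2 were not searched.

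RUNX2 distal promoter: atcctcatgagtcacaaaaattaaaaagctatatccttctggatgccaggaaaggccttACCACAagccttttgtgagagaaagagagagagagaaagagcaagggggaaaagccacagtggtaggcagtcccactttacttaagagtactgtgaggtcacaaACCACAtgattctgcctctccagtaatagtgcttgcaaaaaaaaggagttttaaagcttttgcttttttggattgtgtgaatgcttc

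Partners and relatives of the factors were measured next. Of 25, 21 were tested, 0 rose and 1 fell, with a median log2 fold change of -0.20; over all genes tested 0.545% rose and 0.153% fell. The gene that fell was TLE1, a Groucho corepressor recruited by RUNX and other factors, from 44.6 and 56.5 CPM with ethanol to 3.05 and 6.16 CPM with ATRA (-3.45 ± 0.42, adjusted p = 0.0410, edgeR quasi-likelihood). Its relative TLE2 was at -2.63 ± 0.45 and TLE3 at 1.17 ± 0.26, neither of which passed (adjusted p = 0.0704 and 0.107, edgeR quasi-likelihood). The RUNX partner CBFB was at 183 ± 43.0 CPM with ATRA and 135 ± 12.6 CPM with ethanol, and the TWIST partners TCF3 and TCF4 at 0.13 ± 0.26 and -0.43 ± 0.30. The ZEB corepressors CTBP1 and CTBP2 were at 0.18 ± 0.33 and 0.10 ± 0.29. Without a library 0 or 1 partners were called higher and 2 or 3 lower, where 4.2% to 6.96% of all genes were called. DESeq2 called 2 lower (6.36% of all genes), the replicate block in edgeR 1 higher and 6 lower (21.7%), and limma-voom 0, so that the call of TLE1 was lost there (0.265%). The same shares of all genes stand behind the counts of the other lists under these alternatives.

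Most epithelial genes that SNAI and ZEB factors are known to repress did not pass the filter on low counts. Of 33, 13 were tested, and 0 passed in either direction. Of the 13, 9 had a log2 fold change above 0 and 4 below, with a median of 0.55. CDH1 had 1 read in all, in ethanol library 2, and the splicing factor ESRP1 had 1 read, in ATRA library 1. Above a mean log2 CPM of 1, the smallest p were those of the keratin gene KRT8 and of TJP1, which encodes a tight junction protein; KRT18, the partner keratin of KRT8, lay under that level and had a smaller p. KRT18 was at 3.18 and 3.59 CPM with ATRA and 0.154 and 0.0991 CPM with ethanol (4.70 ± 0.70, adjusted p = 0.0533, edgeR quasi-likelihood), and KRT8 at 3.59 and 6.76 against 0.385 and 0.941 CPM (2.92 ± 0.70). TJP1 was at 1.02 ± 0.24 (adjusted p = 0.123, edgeR quasi-likelihood). In KRT18 and KRT8 both ATRA libraries lay above both ethanol libraries, an order that 23.8% of all genes tested had. In KRT19, another keratin gene tested, the groups overlapped (4.34 and 9.27 CPM with ATRA, 4.85 and 4.46 CPM with ethanol, 0.55 ± 0.51). Without a library between 1 and 5 of these genes were called higher and 0 lower, and DESeq2 called 2 higher.

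Mesenchymal effector genes had a median log2 fold change of 1.21. Of 30, 26 were tested, 3 rose and 0 fell, where 0.545% of all genes tested rose and 0.153% fell. Of the 26, 19 had a log2 fold change above 0 and 7 below. At an unadjusted p under 0.05 (edgeR quasi-likelihood), 13 were higher and 2 lower, where 15.9% of all genes lay under that value in either direction. The 2 lower genes were LUM at -2.22 ± 0.58 and S100A4 at -1.98 ± 0.75. The fibronectin gene FN1 rose from 21.7 and 33.8 CPM with ethanol to 464 and 682 CPM with ATRA (4.37 ± 0.38, adjusted p = 0.0274), vimentin VIM rose by 2.86 ± 0.34 (adjusted p = 0.0410), and the collagen gene COL3A1 by 6.36 ± 0.85 (adjusted p = 0.0459, all edgeR quasi-likelihood). N-cadherin, CDH2, was at 0.54 ± 0.27 and did not pass. The 3 became 5 to 12 higher without a library, with 0 to 3 lower, 8 higher and 2 lower with DESeq2, and 2 higher with limma-voom. VIM and COL3A1 were higher in ATRA library 1 than in 2, by 1.66-fold and 4.05-fold, as were TBX18 and SNAI2, while FN1 was 1.47-fold higher in library 2.

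**Figure D4:**
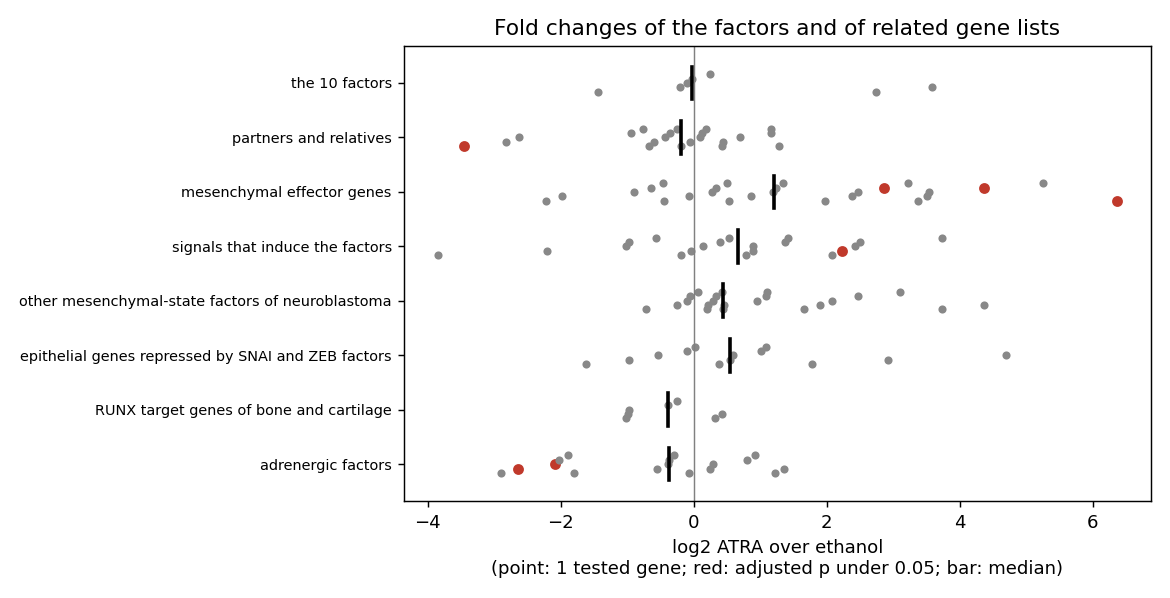
Log2 fold change of ATRA over ethanol for each tested gene (points) of the 10 factors and of 7 related lists, with red for adjusted p under 0.05 and a black bar for the median. The factors centre on -0.02 with no red point, and the mesenchymal effector genes centre on 1.21 with 3 red points.

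Signals known to induce these factors were measured as well. Of 26, 20 were tested, 1 rose (0.545% of all genes did) and 0 fell, with a median of 0.66. HGF, a growth factor for the MET receptor, rose from 120 and 133 CPM to 677 and 505 CPM (2.23 ± 0.28, adjusted p = 0.0410, edgeR quasi-likelihood). SMAD3, which carries the TGF-beta signal to the nucleus, was at 2.09 ± 0.30 and the ligand gene TGFB1 at 2.42 ± 0.49 (adjusted p = 0.0528 and 0.0922, edgeR quasi-likelihood). Without a library 2 to 6 of these genes were called higher and 1 lower, with upper quartile scaling 2 higher, and with DESeq2 6 higher and 1 lower.

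Of 27 other factors of the neuroblastoma mesenchymal state, 22 were tested and 0 passed, with 18 above 0 and a median of 0.45. At an unadjusted p under 0.05, 9 were higher and 0 lower, where 15.9% of all genes lay under that value in either direction. SMAD3, which belongs to this list too, and the receptor gene NOTCH2 (23.6 and 5.68 CPM with ATRA, 1.31 and 0.892 CPM with ethanol, 3.74 ± 0.79) had the smallest p among those with a mean log2 CPM of at least 1. Without a library 2 to 5 of them were called higher and 0 lower, and DESeq2 called 6 higher and upper quartile scaling 1. Of 14 bone and cartilage genes linked to RUNX factors, 7 were tested and 0 passed (median -0.39). The homeobox genes MSX2 and DLX5 had the smallest p, at -1.02 ± 0.41 and -0.97 ± 0.53.

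The adrenergic factors, the counterpart of this set, had 0 higher and 2 lower of 17 tested, where 0.153% of all genes were called lower, with a median of -0.38. GATA3 fell by 2.64 ± 0.30 and HAND1 by 2.08 ± 0.26 (adjusted p = 0.0381 and 0.0410, edgeR quasi-likelihood). Without a library 1 or 2 were called higher and 3 to 5 lower, and DESeq2 called 1 higher and 4 lower. With limma-voom 0 were called, so the calls of GATA3 and HAND1 were lost there.

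Markers of other cell types stand beside these values as follows, and their part in the differences of TBX18, SNAI2 and the mesenchymal genes was not tested. They are not a separate set. The fibroblast markers COL1A1, COL1A2, LUM, DCN, PDGFRA, PDGFRB and THY1 were also counted among the mesenchymal effector genes. The epithelial markers EPCAM, CDH1, KRT8, KRT18, KRT19 and CLDN4 were also counted among the epithelial genes that SNAI and ZEB factors repress. Of 8 fibroblast markers 6 were tested and 0 passed; their summed level was 304 and 573 CPM with ATRA and 397 and 700 CPM with ethanol. COL1A1 (22.96 and 4.91 against 0 and 0.644 CPM) and LUM (13.7 and 21.8 against 39.8 and 126 CPM) had the smallest p and differed in opposite directions. Of 8 leukocyte markers 3 were tested and 0 passed, with sums of 22.3 and 8.50 CPM with ATRA and 5.70 and 2.73 CPM with ethanol, most of it CD14, and CD68 and LYZ at 0 reads. Endothelial markers summed to between 0.743 and 2.87 CPM in a library, and none of the 8 was tested. Epithelial cell markers summed to 18.7 and 28.8 CPM with ATRA and 8.08 and 9.22 CPM with ethanol, with 5 of 8 tested, 0 passed, all 5 above 0 with a median log2 fold change of 1.78, and KRT5 at 0 reads.

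Across the libraries, the factors also varied with the title number. This was not particular to them, since deviations of same-numbered libraries correlated at 0.632 across all genes tested. SNAI2 and TBX18 were higher in library 1 than in library 2 in both groups (8.78-fold and 3.82-fold with ATRA, 2.93-fold and 2.33-fold with ethanol). Of all genes tested, 0.746% and 3.2% had a ratio of library 1 over library 2 at least as high with ATRA. With ethanol it was 7.76% and 11.5%. SNAI1 and ZEB2 were higher in library 2 in both groups (1.24-fold and 1.31-fold with ATRA, 1.75-fold and 1.85-fold with ethanol). For these, 67.7% and 71.6% of all genes had a ratio of library 1 over library 2 at least as high with ATRA, and 88.9% and 90.3% with ethanol. ZEB1 was higher in library 2 by 1.17-fold with ATRA and 1.11-fold with ethanol, and RUNX2 in library 1 by 1.01-fold and 2.87-fold. TWIST1 was 1.1-fold higher in library 1 with ATRA and 1.14-fold higher in library 2 with ethanol. What the title number stands for is not given in the sources used here.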

How the data were processed

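RNA-seq was made from 2 ATRA and 2 ethanol libraries. Per the labels' protocols, ribosomal RNA was depleted and a directional kit was used. The values are whole-number counts of reads for each gene symbol, as deposited; per the submitters' processing notes STAR 2.5.2b, featureCounts 1.5.1 and the human build hg19 were named together. The sources used here do not give the annotation, the strand setting or the treatment of shared reads. Coordinates are those of RefSeq on GRCh38.p14, not of the files' build.

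Counts were fitted with edgeR 4.0.16 in R 4.3.3: filterByExpr with a minimum count of 10, TMM, robust quasi-likelihood F test with the group as sole term, and Benjamini-Hochberg adjustment over 18900 genes (threshold 0.05, two-sided). The SE was derived from the fold change and its F value. Differences within a number used a prior count of 2. DESeq2 1.42.0 and limma-voom (limma 3.58.1) were alternatives, beside other scalings, no filter, a replicate block and leaving out each library. In counts simulated for 18900 genes, the procedure recovered 4.04% of 2-fold and 65.7% of 8-fold changes (99 genes tested for each), with 2 false calls. Changes were planted only in genes above a set level. No difference by title number was simulated, so these rates need not hold for genes that vary with it, such as SNAI2.

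The 10 members and all lists were chosen with earlier results of these data known. All members are named; from each list, up to 3 genes called in each direction, or, with none called, the 2 of smallest p whose mean log2 CPM reached 1, and overlapping genes. SNAI3, PRRX2, RUNX3, TCF3, TCF4, CBFB, CTBP1, CTBP2, TLE2, TLE3, CDH1, ESRP1, KRT18 and KRT19 were added after their values were seen. So were CDH2, S100A4, LUM as an effector gene, SMAD3, TGFB1 and the miR-200 genes. PATJ was found under its older symbol; TBX18-AS1, RUNX1-IT1 and LINC01426 were not analysed here. SNAI3-AS1 was at 0.28 ± 0.44. Genes every cell uses (ACTB, GAPDH, TBP, PPIA, RPLP0, HPRT1) had 0 of 6 called.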

Additional observations from a re-analysis of the deposited data

How the results depend on the processing

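Of the 18900 genes, 103 were called higher and 29 lower. The counts were 1126 and 695 when no count filter was used (genes with 1 count or more), 827 and 442 with DESeq2, 43 and 7 with limma-voom, 2325 and 1773 with the replicate block in edgeR, 1466 and 1166 with the replicate block in DESeq2, and 547 to 838 and 231 to 604 without 1 library; the share called higher thus moved from 78.0% to between 55.7% and 86.0%. Of the 10 factors, 0 were called in either direction. There were 2 higher with no count filter, 2 with DESeq2, 2 and 2 with the replicate block in edgeR and DESeq2 (TBX18 and SNAI2 each time), 0 to 2 without 1 library, and 1 lower (SNAI1) with the replicate block in edgeR. That block gave log2 values of 3.41 (adjusted p = 0.00214) for TBX18, 2.31 (0.00808) for SNAI2 and -1.41 (0.0317) for SNAI1, where it called 21.7% of all genes. The title numbers are not stated to pair the libraries; deviations of same-numbered libraries correlated at 0.632 across genes. RUNX2 turned to 0.17 with limma-voom, 0.028 and 0.036 with the replicate block in edgeR and DESeq2, and 0.78 without ethanol 1, in a range of -0.67 to 0.78 without 1 library. ZEB1 turned above 0 without ATRA 1 (0.078) and without ethanol 2, in a range of -0.15 to 0.078, and ZEB2 turned to -0.17 without ethanol 1, in a range of -0.17 to 0.78. TWIST1, SNAI1, SNAI2 and TBX18 kept their direction in all 12 alternatives, with adjusted p of 0.432 to 0.972, 0.0317 to 0.711, 6.22e-08 to 0.983 and 0.000573 to 0.515. Of the list counts under the alternatives, 206 were unchanged or moved by at most 1.5 times, many of them staying at 0. A further 127 moved to more genes and 3 to fewer, where any step from or to 0 counted as a move. The cause was not tested. Depth limits the low factors: TWIST2 had no reads, and the read ratios of PRRX1 and RUNX1 had counting intervals of 0.315 to 3.52 and 1.55 to 62.5. Both intervals leave out the spread between libraries.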
